A study of Caenorhabditis elegans with 4 samples.

Results

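The miRNAs cel-miR-87 and cel-miR-233 of *Caenorhabditis elegans* are grouped with miR-356 because they are taken to share the seed of miR-87. All rows of the deposited miRNA table that carry one of these 3 names, with any letter suffix and either arm, were selected, which gave 4 of the 205 listed mature miRNAs. They were miR-87-3p, miR-87-5p, miR-233-3p and miR-356b-3p, from 3 of the 132 hairpins represented in the table. The letter-a form, miR-356a, was not among the listed names. Small RNA had been sequenced from whole wild-type N2 Bristol worms fed OP50 bacteria and collected at the last larval stage (L4). The 2 control libraries (CTRL) came from animals kept at 20°C, and the 2 heat shock libraries (HS) from animals moved to 35°C. The labels give the length of the heat shock as 4 h in one field and as 6 h in another. For small RNA libraries the longer of these is the one described in the published methods. Each row holds 1 level, the authors' average of its size-factor-scaled counts across the 4 libraries (the mean normalized count). CTRL and HS are pooled in it, so no level of either group, no spread between replicates and no difference caused by heat can be given from it, and everything below describes the miRNAs over both temperatures together.

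A miRNA is cut from an RNA hairpin, which releases a duplex of a 5p and a 3p arm. One arm is kept by an Argonaute protein and guides it to mRNAs, mainly by pairing of its seed, the bases just after its 5′ end, and the other arm is usually lost. miR-233 is known in *C. elegans* from the unfolded protein response of the endoplasmic reticulum, the pathway that senses unfolded proteins in that compartment. A miR-87 of *Drosophila* is known for its role in the regrowth of dendrites after injury.

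All 3 hairpins were represented by their 3p arm, and miR-87-3p was the most abundant of the 4 members. Its mean normalized count was 4887, which placed it 69th of 205. This level was 3.23 times the median of the table, 1512, and exceeded that of 66.3% of the listed miRNAs. Its nearest neighbours in level were miR-40-3p, at 4997, and miR-39-3p, at 4359, both of the miR-35 family, which acts in embryos and the germline.

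miR-233-3p had a mean normalized count of 2965 and ranked 82nd. It stood between miR-5592-5p at 3088 and miR-241-3p at 2887, the latter an arm of a let-7 family hairpin. The ratio of miR-87-3p to miR-233-3p was 1.65. Whether this order holds in each library cannot be read from a pooled mean, and because ligation and amplification favour some sequences over others, ratios between different miRNAs are ratios of signal and not of molecules.

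The other members were much weaker. miR-356b-3p had a mean normalized count of 537.7 and ranked 141st, between miR-43-3p at 570.4 and miR-4816-3p at 533.2. miR-87-5p followed at 516.2, in position 144, between lin-4-3p at 523.6 and miR-1829a-5p at 494.3. These members lay at 0.356 and 0.342 times the table median, and their own ratio was only 1.04, so they cannot be ordered without a measure of error. miR-87-3p exceeded miR-356b-3p by 9.09 times in signal, and miR-233-3p exceeded it by 5.51 times.

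**Figure D1:**
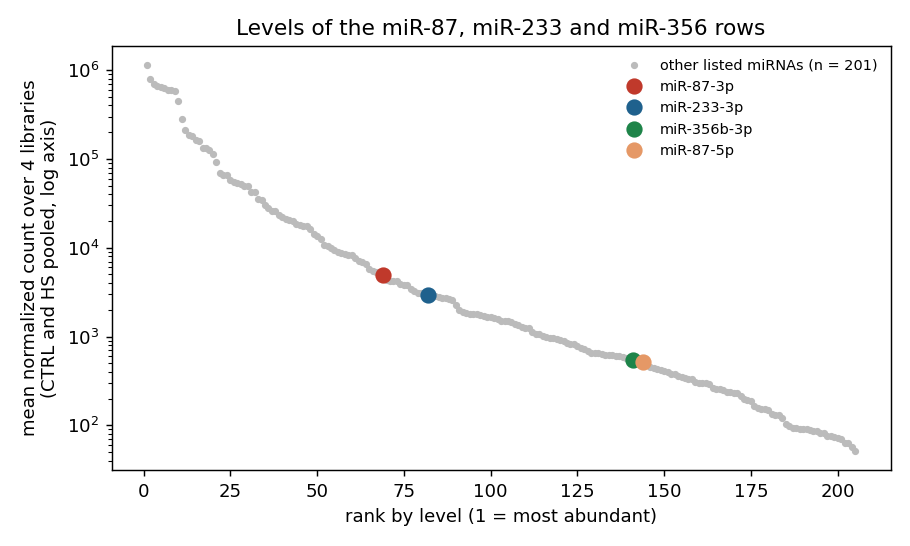
Mean normalized count of each of the 205 listed miRNAs (log axis, CTRL and HS pooled over 4 libraries) against its rank, 1 being the most abundant. miR-87-3p (4887) and miR-233-3p (2965) lie above the table median of 1512, while miR-356b-3p (537.7) and miR-87-5p (516.2) lie below it.

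Together the 4 members, which were grouped by name, held 8905 mean normalized counts. miR-87-3p made up 54.9% of this sum, miR-233-3p 33.3%, miR-356b-3p 6.04% and miR-87-5p 5.80%. The same sum was 0.0900% of the summed mean normalized counts of all listed miRNAs. Singly, miR-87-3p accounted for 0.0494% of the total, miR-233-3p for 0.0300%, miR-356b-3p for 0.00544% and miR-87-5p for 0.00522%. Most of the total belongs to a few very abundant miRNAs, and the table spans 51.5 to 1136489 mean normalized counts, so members in the upper part of the ranking still held little of it.

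The hairpin of miR-87 was the only one of the family listed with both arms. Its 3p arm exceeded its 5p arm 9.47 times, and the 5p arm therefore held 9.55% of the signal of the hairpin. Of the 73 hairpins listed with both arms, 44 had more 3p than 5p. When these hairpins were ordered by the ratio of the more abundant to the less abundant arm, which ran from 1.01 to 4263 with a median of 20.8, miR-87 was 42nd. Its arms were thus less unequal than those of the median hairpin among these 73. The 59 hairpins with 1 listed row have no arm ratio, so the order covers only hairpins whose weaker arm was also listed. Some hairpins with a very abundant arm are therefore missing from it, such as that of miR-57-5p at 665208 mean normalized counts. The less abundant arm, miR-87-5p, was 36th of 73 such arms by level, close to their median of 452.5. The more abundant arm, miR-87-3p, was 51st of 73, against a median of 20314. The moderate ratio went with a 3p arm in the lower part of its class and a 5p arm near the middle of its own. No test of these positions was made, as each rests on 1 pooled value per arm.

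**Figure D2:**
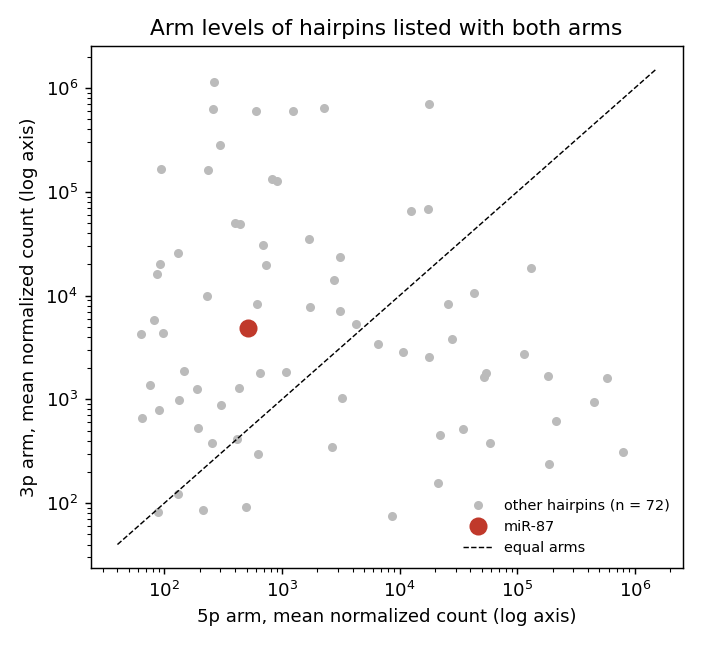
Mean normalized count of the 3p arm against that of the 5p arm for the 73 hairpins listed with both arms (log axes, CTRL and HS pooled, each point 1 hairpin, dashed line equal arms). miR-87 (4887 for 3p, 516.2 for 5p) lies above the line, with an arm ratio of 9.47 against a median of 20.8 for the more over the less abundant arm.

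For miR-233 and miR-356b only the 3p arm was listed, although the annotation (Ensembl release 115, WBcel235 assembly) gives both hairpins a 5p and a 3p arm. A hairpin with a single row was common, since 59 of 132 hairpins had one, and 46 of these 59 have both arms annotated. Among the 25 hairpins with nothing but a 3p row, whose median was 969.6 mean normalized counts, miR-233-3p ranked 7th and miR-356b-3p 20th. No level can be given here for miR-233-5p or miR-356b-5p.

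Both the miR-87 and the miR-233 hairpin lie inside introns. That of miR-87 (WBGene00003315) is 94 nt long and lies on the minus strand of chromosome V, from 12038688 to 12038781. It sits on the same strand within an intron of *kup-1*, a protein-coding gene, between exons that end 1995 nt upstream and resume 1546 nt downstream of the hairpin. A non-coding RNA gene of the opposite strand, F10C2.11, covers all 94 nt. The hairpin of miR-233 (WBGene00003326), 98 nt on the minus strand of chromosome X from 12078587 to 12078684, also lies on the same strand within an intron, that of the protein-coding gene W03G11.4. The nearest exons of that gene, taken over all its transcripts, are only 293 nt apart, with 125 nt on the upstream and 70 nt on the downstream side of the hairpin. Of the 129 hairpins of the table that could be placed by name, 30 (23.3%) lie in an intron of a protein-coding gene on the same strand. By their more abundant arm, miR-87 was 14th and miR-233 16th of these 30. The median of the 30 intronic hairpins was 3437 mean normalized counts and that of the other 99 was 3788, so the miR-87-3p level was above both medians and the miR-233-3p level below both. Neither hairpin has another annotated miRNA gene within 10 kb. The nearest is *mir-61*, 268531 bp from *mir-87*, and *mir-239a*, 286044 bp from *mir-233*.

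The mature arms of both hairpins are laid out alike. miR-87-5p is annotated at bases 17 to 40 of its hairpin, counted from the 5′ end, and miR-87-3p at bases 61 to 82, with 20 nt between the arms. miR-233-5p spans bases 19 to 41 and miR-233-3p bases 61 to 83, with 19 nt between them. The listed 3p arms thus begin at the same base of either hairpin and are 22 and 23 nt long.

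The miR-356 locus is arranged differently. The annotation holds 2 hairpins on chromosome III that overlap on opposite strands. *mir-356a* (WBGene00023453) runs on the plus strand from 7860147 to 7860256, and *mir-356b* (WBGene00195236) on the minus strand from 7860167 to 7860234, so that all 68 nt of *mir-356b* lie within the span of *mir-356a*. The first 13 nt of *mir-356a* fall in the 3′ UTR of *tomm-7*, which is named for a subunit of the import channel of the mitochondrial outer membrane, on the same strand. *mir-356b* itself lies 7 nt beyond the end of that gene and overlaps no protein-coding gene. The annotation has 5 such pairs among 258 miRNA genes, and 3 of the 129 placed hairpins of the table are overlapped by a miRNA hairpin of the other strand, namely *mir-55*, *mir-786* and *mir-356b*. Another of the pairs carries the name miR-5592, which is in the table but was not placed, because the annotation numbers the hairpins of that pair separately.

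The listed arm of *mir-356b* can be compared with miR-356a by position, which cannot decide whether their seeds share letters. The single annotated mature form of miR-356a covers 7860172 to 7860192 on the plus strand, and miR-356b-3p covers 7860167 to 7860189 on the minus strand. They share 18 bases of the genome, of 21 in the first and 23 in the second, but as opposite strands. Bases 2 to 8 of miR-356a, counted from its 5′ end, lie at 7860173 to 7860179, and those of miR-356b-3p at 7860182 to 7860188. The seeds thus come from separate positions with 2 bases between them, on opposite strands, and the bases that form one of them are no part of the other. The grouping by a common seed was not checked on letters, because no miRNA sequence was used here, and miR-356b-3p is counted as a member by its name alone. The study does not state how its counting treated strand. If strand was not used, reads lying wholly within the 18 shared bases could not be assigned to miR-356a or miR-356b-3p. Each mature form also has bases outside that stretch. Whether the 537.7 mean normalized counts of miR-356b-3p include reads of miR-356a was not tested.

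**Figure D3:**
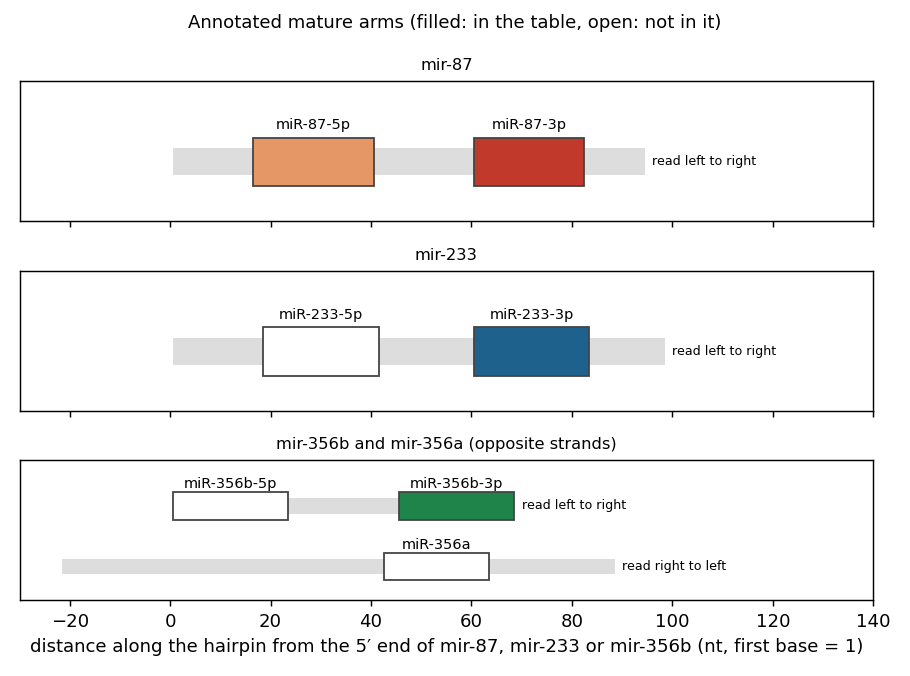
Annotated hairpins (grey) and mature arms (boxes, filled where the arm is in the table and open where it is not) of mir-87, mir-233 and the mir-356 pair, drawn to scale against distance in nt from the 5′ end of mir-87, mir-233 or mir-356b. The 3p arms of mir-87 and mir-233 both begin at base 61, and miR-356b-3p shares 18 bases with miR-356a on the opposite strand.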

How the data were processed

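Per the sample titles, 2 CTRL and 2 HS libraries of small RNA were made. The authors used Trizol RNA and a TruSeq small RNA kit, mapped reads to *C. elegans* miRNAs and ran DESeq2 on 2 biological replicates per group. The miRNA aligner, miRNA reference, treatment of reads matching several miRNAs and versions are not given in the sources used here. The deposited signal is the authors' DESeq2 base mean, in which counts were scaled by size factors and averaged across the 4 libraries. The remaining columns hold the authors' own comparison of HS with CTRL (a fold change and an adjusted p) and were not used, so no test was made. Depth per library is unknown, and no interval or detection limit could be given.

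Ranks, shares and arm ratios were computed in Python 3.11.15, and plots in matplotlib 3.10.9. Interval and rank functions were tested on simulated data. Hairpins were placed by name on WBcel235 (Ensembl release 115, coordinates counted from 1), with 129 of 132 matched. The study names WS235 for its long RNA. A hairpin was intronic where it lay within a gene without meeting any of its exons. Distances to exons use the nearest exon ends over all transcripts of the gene, which need not belong to the same transcript. The members and the choices of what to compute were made with earlier results of these data known. Besides the members, the text names the miRNA next above and next below each in level, and the miRNAs of the neighbouring or overlapping hairpins, which were chosen after their positions were seen.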

Additional observations from a re-analysis of the deposited data

How the results depend on the processing

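When the more abundant arm of each hairpin was ranked alone (132 miRNAs), miR-87-3p moved to position 63, miR-233-3p to 71 and miR-356b-3p to 107. Their shares of the sum became 0.0501%, 0.0304% and 0.00552%. Without the 10 most abundant miRNAs, the shares rose to 0.158% for miR-87-3p, 0.0960% for miR-233-3p, 0.0174% for miR-356b-3p and 0.0167% for miR-87-5p, because the sum is smaller. Adding 10 to both arms of miR-87 changed their ratio from 9.47 to 9.31. Among the 60 hairpins with both arms at 100 or more, miR-87 was 33rd by arm ratio. A minimum of 1000 mean normalized counts left the positions of miR-87-3p and miR-233-3p at 69 and 82, which follows from its construction. Shares within groups of equal seed were planned but not run, as no miRNA sequence was used here. No paired analysis was possible because the level pools all libraries, and leaving out replicates, other normalizations and filters on counts could not be run for the same reason. Unknown depth limits most the weaker members, miR-356b-3p and miR-87-5p.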
